A study of Mus musculus with 22 samples.

Results

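The 9 genes described here are Hoxa2, Hoxa3, Hoxa4, Hoxa5, Hoxa6, Hoxa7, Hoxa9, Hoxa10 and Hoxa11, protein-coding genes of the Hoxa homeobox cluster. They were taken by gene name from the 47069 genes of the deposited count and FPKM tables. Their mRNA was followed over 22 libraries of whole bone marrow, in marrow grown from stem and progenitor cells edited at Runx1, Ezh2 or Bcor. Runx1 is a transcription factor of blood stem and progenitor cells. Ezh2 is the enzyme of the PRC2 Polycomb complex that methylates histone H3, and Bcor is a corepressor within the PRC1.1 form of the other Polycomb complex.

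LSK cells (lineage-negative, Sca-1-positive, Kit-positive marrow cells) of Cas9 knock-in mice (strain C57BL/6 in the labels) received guide RNAs and were transplanted into C57BL/6J mice irradiated with 7 Gy. Mice were sampled when they fell ill with leukaemia, or else at 6 months, without a record per mouse in the labels. The groups were sgEzh2 + sgRunx1 (4 libraries), sgBcor + sgRunx1 (3), sgBcor + sgLuc (3), sgEzh2 + sgLuc (3), sgRunx1 + sgLuc (3) and sgLuc (6), where sgLuc targets luciferase and has no target in the mouse genome. All groups, sgLuc included, carried Cas9 and the transplant, and recipient cells that outlived irradiation are part of whole marrow. The sources used here give no ages, no guide sequences and no share of edited cells.

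Hox genes encode transcription factors that bind DNA through a homeodomain, often together with MEIS and PBX partner proteins. In the blood, genes from the middle of the Hoxa cluster are active in stem and progenitor cells and are switched off as these cells mature, and Hoxa9 with Meis1 is a well-known driver of myeloid leukaemia in mice. MLL-family complexes keep the cluster on, and Polycomb complexes PRC1 and PRC2 keep it off in cells that do not use it.

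On GRCm38 (GENCODE M21) the cluster lies on chromosome 6, on the minus strand, with Hoxa2 at 52162417 to 52164831 and Hoxa11, its neighbour farthest from it among the 9, at 52242106 to 52245810. Hoxa5, at 52201754 to 52204587, and Hoxa9, at 52223100 to 52231089, sit between them. Promoters of 3 members are shown, the 2 that passed the test under the Bcor guide (Hoxa2 and Hoxa5) and the one with the most reads (Hoxa9). Each run is the 250 bases before the RefSeq gene start (GRCm38.p6, minus strand, written 5′ to 3′), none of which lies in an annotated GENCODE exon (the Hoxa9 window falls within the longer GENCODE span of that gene), and capitals mark CpG dinucleotides. The windows are chr6:52164832-52165081 for Hoxa2, chr6:52204588-52204837 for Hoxa5 and chr6:52227371-52227620 for Hoxa9.
Hoxa2 promoter: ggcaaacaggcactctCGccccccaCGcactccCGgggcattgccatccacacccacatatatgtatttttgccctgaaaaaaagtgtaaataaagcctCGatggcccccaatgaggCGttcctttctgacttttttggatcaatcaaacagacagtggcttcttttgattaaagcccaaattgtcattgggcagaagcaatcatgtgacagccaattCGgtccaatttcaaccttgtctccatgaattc
Hoxa5 promoter: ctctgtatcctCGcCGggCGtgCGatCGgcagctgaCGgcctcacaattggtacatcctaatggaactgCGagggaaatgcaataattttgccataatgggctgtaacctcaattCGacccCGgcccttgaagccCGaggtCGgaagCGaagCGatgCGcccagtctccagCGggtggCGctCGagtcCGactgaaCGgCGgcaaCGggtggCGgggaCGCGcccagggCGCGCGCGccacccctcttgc
Hoxa9 promoter: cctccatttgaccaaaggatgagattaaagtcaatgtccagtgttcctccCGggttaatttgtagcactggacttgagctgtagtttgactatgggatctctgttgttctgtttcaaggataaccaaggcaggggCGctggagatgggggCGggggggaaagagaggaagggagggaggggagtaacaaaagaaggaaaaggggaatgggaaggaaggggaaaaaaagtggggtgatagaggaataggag

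The 3 windows differ in base make-up. The Hoxa5 window held 28 CpG and was 63.6% G and C, the Hoxa2 window 6 CpG and 46.4%, and the Hoxa9 window 3 CpG and 49.6%. The median over 32851 mouse promoters of the same length was 6 CpG, and 7.6% of them held as many as Hoxa5. The RefSeq promoter table matched 8 members with 9 windows, 2 of them for Hoxa10, and Hoxa4 had no entry. Neither TGTGGT nor TGCGGT, core RUNX motifs searched on both strands, was found in any of the 9 windows, while 18.6% of all promoters held at least 1 of them. These letters describe the windows only and say nothing of binding.

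Total counts ran from 30023722 to 57175449 per library. The members were low genes in whole marrow. Over all 22 libraries Hoxa9 had 8930 counts and Hoxa7 6934, Hoxa5 had 2316, Hoxa3 853, Hoxa10 740, Hoxa6 506, Hoxa4 464 and Hoxa2 295. Hoxa11 had 5 counts, 4 in sgLuc replicate 2 and 1 in sgLuc replicate 3, and a count of 0 in each of the other 20 libraries allows up to 0.0523 to 0.0972 CPM, depending on depth. With 5 counts it failed the filter on low counts. The other 8 passed, and the same number passed when both Bcor groups were left out of the filter.

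sgEzh2 + sgLuc replicate 3 had a summed level of 8 T cell markers of 2796 CPM, against 126 and 132 CPM in the other libraries of its group. Its 5 promyelocyte markers summed to 18.3 CPM, against 4858 and 5181 CPM. It also held nearly no Hoxa mRNA, with 5 counts of Hoxa9, 0 of Hoxa7 and a summed FPKM of 0.178. The X-inactivation RNA Xist was called higher and the 4 Y-linked genes checked lower in each of the 5 groups with a guide against a mouse gene than in sgLuc, so the guides and sex cannot be told apart in any comparison with sgLuc. In comparisons among those 5 groups none of these genes was called. Ezh2 mRNA was lower in groups with its guide, 43.9 to 77.1 CPM in sgEzh2 + sgRunx1 and 57.6 to 70.5 CPM in sgEzh2 + sgLuc, against 88.2 to 109.9 CPM in sgLuc. Runx1 and Bcor mRNA were not lower in groups with theirs, and Cas9 lesions need not lower an mRNA.

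By deposited FPKM, the Hoxa transcript pool of marrow was mostly Hoxa7 and Hoxa9. FPKM scales by 1 length per gene, and members are set beside each other on that length. The implied length was 1501 bases for Hoxa9 and 1218 for Hoxa7, against 5580 and 2876 exon bases in GENCODE M21. For Hoxa3 and Hoxa10 it was also shorter, and for Hoxa2, Hoxa4, Hoxa5 and Hoxa6 it equalled the exon bases. The shares and the order of members depend on this choice of length. Hoxa7 and Hoxa9 together made up 65.0% to 88.3% of the summed FPKM of the 9 members in 21 libraries, and 40.4% in sgEzh2 + sgLuc replicate 3, where the sum rests on 12 counts. The summed level was high in both Bcor groups, at 40.3, 17.8 and 39.5 FPKM in sgBcor + sgRunx1 replicates 1 to 3 and at 42.2, 48.3 and 39.0 FPKM in sgBcor + sgLuc replicates 1 to 3. It was 3.56 to 12.3 FPKM in sgEzh2 + sgRunx1, 8.41 to 9.67 FPKM in sgRunx1 + sgLuc and 6.44 to 12.2 FPKM in sgLuc. In sgEzh2 + sgLuc it was 9.82 and 8.08 FPKM beside the 0.178 FPKM of replicate 3. No library without the Bcor guide reached the lowest library with it.

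**Figure D1:**
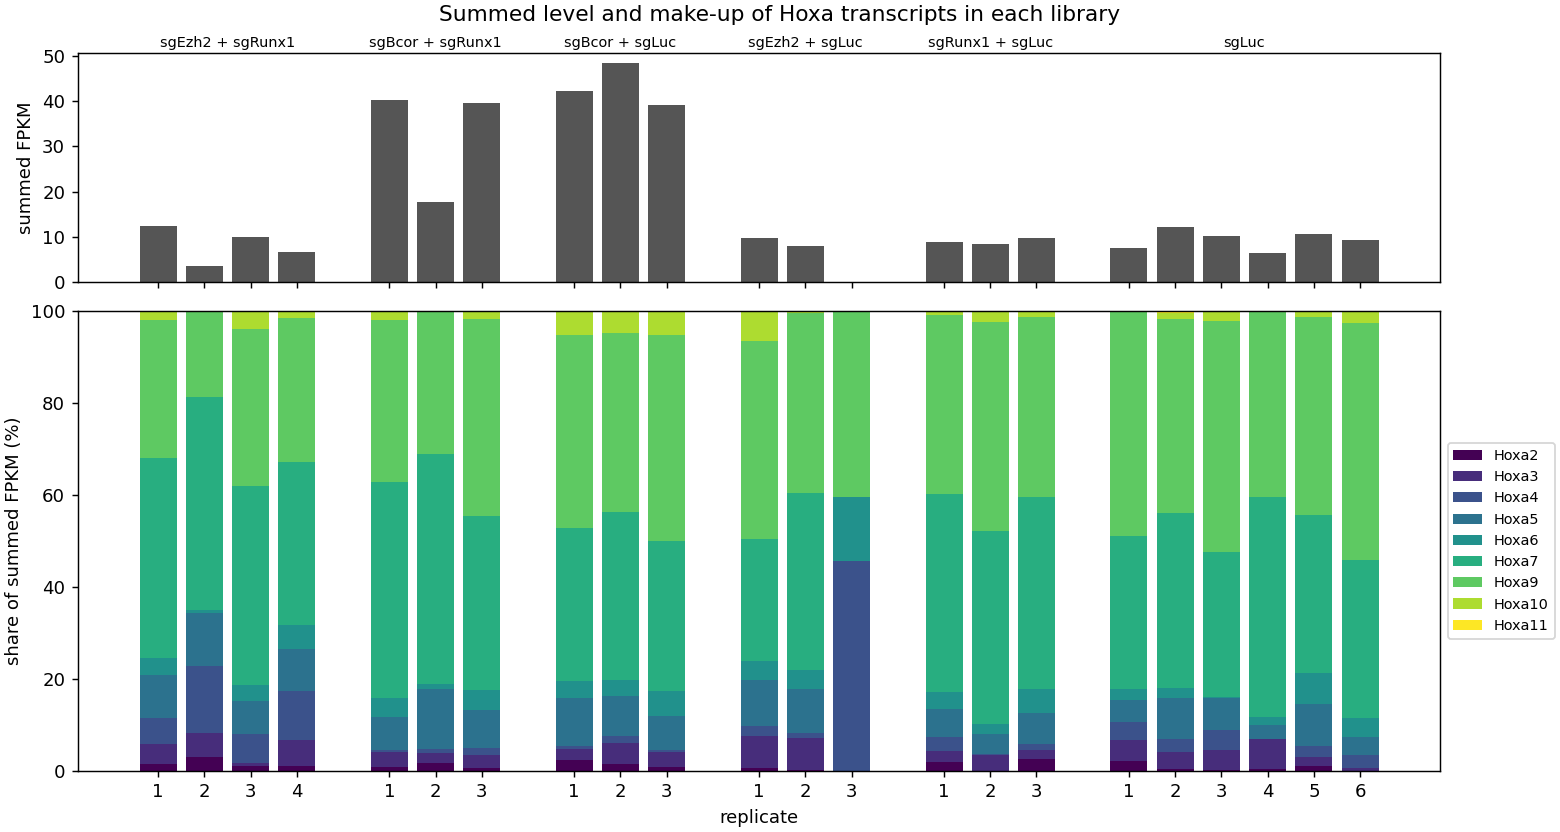
Summed FPKM of the 9 Hoxa members in each library (upper bars, FPKM) and the share of each member in that sum (lower bars, percent), by guide group and replicate. The 6 libraries with the Bcor guide are the highest, at 17.8 to 48.3 FPKM, and Hoxa7 and Hoxa9 fill most of every bar except that of sgEzh2 + sgLuc replicate 3.

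Hoxa9, a leukaemia-associated member, was the highest by count and by deposited FPKM in sgBcor + sgLuc. It stood at 25.9, 28.7 and 24.1 CPM in sgBcor + sgLuc replicates 1 to 3, against 4.02 to 7.58 CPM in sgLuc with a median of 7.38. The 3 libraries lay above all 6 of sgLuc without overlap. The level per length was 18.0 ± 0.678 FPKM in sgBcor + sgLuc (SD, n = 3) and 4.31 ± 0.989 FPKM in sgLuc (n = 6). The log2 fold change was 1.99 (SE 0.613), which did not pass in the fit of all 22 libraries (edgeR FDR 0.0798).

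Hoxa7, which lies beside Hoxa9 and is also a myeloid progenitor gene, stood at 16.6, 21.8 and 14.1 CPM in sgBcor + sgLuc replicates 1 to 3, against 3.09 to 5.37 CPM in sgLuc with a median of 3.98. The groups did not overlap, and the log2 fold change was 2.07 (SE 0.638, edgeR FDR 0.0803). Hoxa10, another progenitor gene of the AbdB-like (posterior) class to which Hoxa9 also belongs, stood at 3.53, 3.87 and 3.13 CPM in sgBcor + sgLuc. It reached at most 0.412 CPM in sgLuc, with a median of 0.259 CPM and 0 counts in replicates 1 and 4. Its log2 fold change was 4.02 (SE 1.12, edgeR FDR 0.0542), the largest among the 8 tested members in this comparison.

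The 2 members that passed in sgBcor + sgLuc against sgLuc were Hoxa5 and Hoxa2. Hoxa5, a regulator of lung and axial skeleton development that is also made in blood progenitors, stood at 8.07, 8.0025 and 4.89 CPM in sgBcor + sgLuc, against 0.389 to 1.96 CPM in sgLuc with a median of 1.01. Its log2 fold change was 2.57 (SE 0.680, edgeR FDR 0.0440). Hoxa2, which patterns the hindbrain and branchial arches in the embryo, stood at 1.63, 1.20 and 0.460 CPM in sgBcor + sgLuc, against 0 to 0.284 CPM in sgLuc with a median of 0.0478. Its log2 fold change was 3.28 (SE 0.894, edgeR FDR 0.0499). Both groups of values were free of overlap.

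Hoxa3, a patterning gene of the thymus and parathyroid, and Hoxa6 also lay above sgLuc without overlap. Hoxa3 stood at 1.73, 3.80 and 1.93 CPM in sgBcor + sgLuc, against 0.0952 to 0.727 CPM in sgLuc (log2 fold change 2.23, SE 0.762, edgeR FDR 0.114). Hoxa6 stood at 1.34, 1.49 and 1.73 CPM in sgBcor + sgLuc, against 0.0308 to 0.684 CPM in sgLuc (log2 fold change 2.51, SE 0.779, edgeR FDR 0.0799). Hoxa4 was the exception, at 0.316, 1.18 and 0.329 CPM in sgBcor + sgLuc, against 0 to 0.709 CPM in sgLuc. Its groups overlapped and its log2 fold change was 0.50 (SE 0.737, edgeR FDR 0.778).

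In this comparison 2 of 9 members were called higher, where 1.97% of the 17659 genes tested were, and 7 of 9 lay above sgLuc without overlap, where 7.8% of all genes did. The median log2 fold change was 2.37 over the 8 tested members and 0.0023 over all genes tested. The spread behind the test came from all 6 groups, and the count of calls turned on single libraries. Without sgEzh2 + sgLuc replicate 3, which is in neither group, 7 members were called (all but Hoxa4 and the untested Hoxa11), where 4.55% of 18171 genes were called higher, and edgeR FDR was 0.000113 for Hoxa7, 0.000529 for Hoxa5, 0.00191 for Hoxa9, 0.0148 for Hoxa3, 0.0168 for Hoxa10, 0.0216 for Hoxa2 and 0.0311 for Hoxa6. A fit of sgBcor + sgLuc and sgLuc alone also called 7, where 7.32% of all genes passed. With all other groups kept, leaving out any 1 library of sgBcor + sgLuc, or sgLuc replicate 1, 2, 3, 4 or 6, ended both calls, and without sgLuc replicate 5 there was 1. The direction of both was kept in every one of these fits. Bulk mRNA does not tell a larger share of cells that express these genes from more mRNA per cell.

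**Figure D2:**
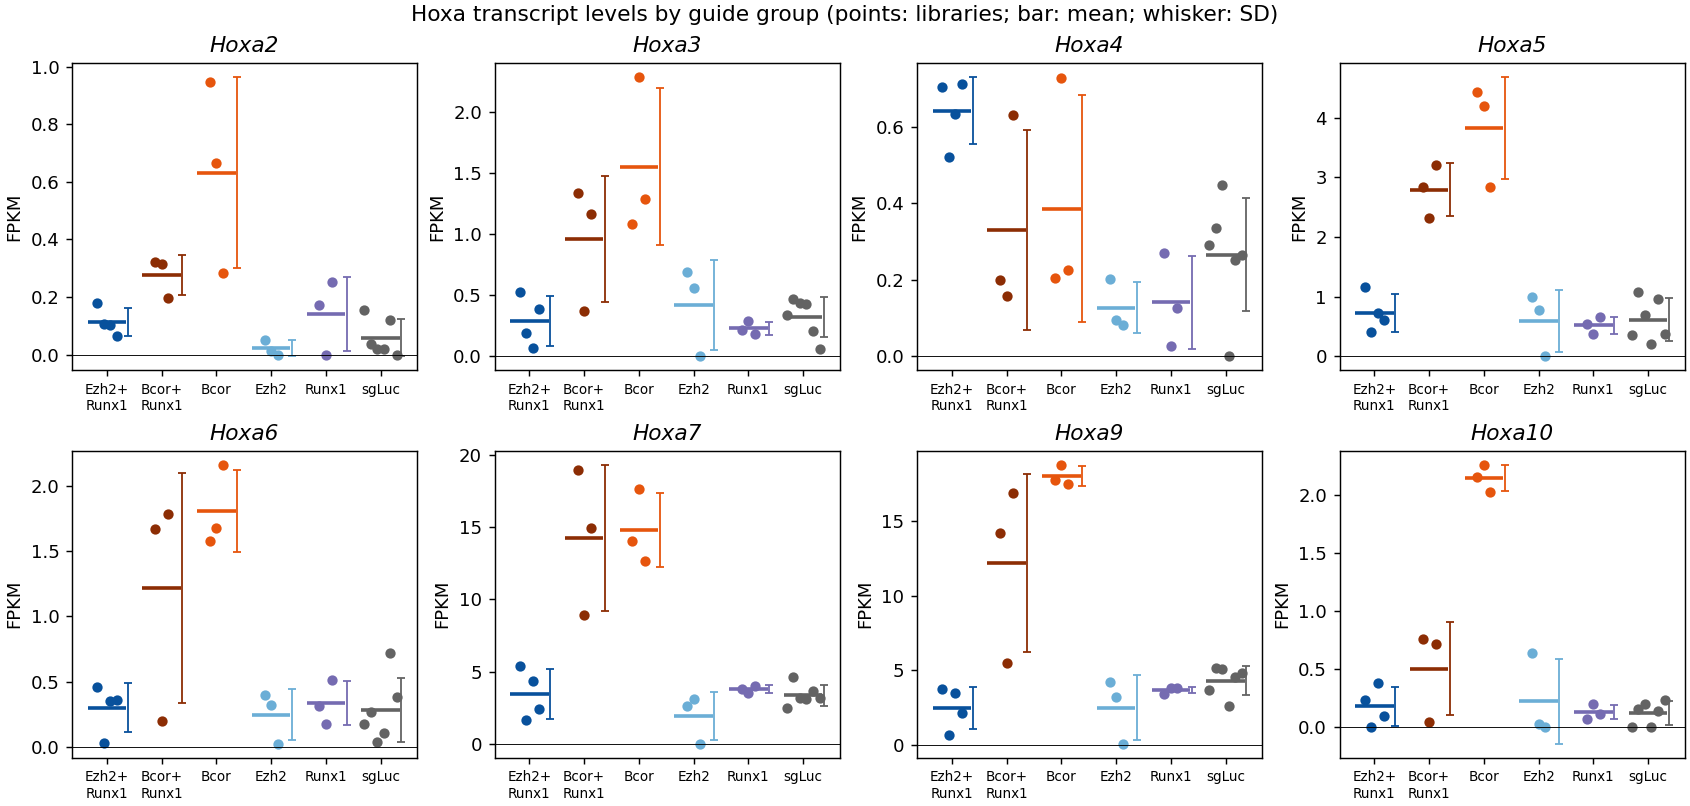
FPKM of the 8 tested Hoxa members in each library (points), with the mean (bar) and SD (whisker) of each guide group. For all but Hoxa4 the 3 libraries of sgBcor + sgLuc lie above the 6 of sgLuc, and for Hoxa4 the 4 libraries of sgEzh2 + sgRunx1 do.

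Cell type markers were read beside these Hoxa values. The summed level of 12 stem and progenitor markers was 284 to 326 CPM in sgBcor + sgLuc, inside the 197 to 414 CPM of sgLuc, and none of the 12 was called. The 5 promyelocyte markers summed to 5845 to 6459 CPM in sgBcor + sgLuc, against 3937 to 14049 CPM in sgLuc, with none called. The 8 T cell markers were also uncalled, at 87.6 to 137 CPM against 31.3 to 98.7 CPM, and the 8 B cell markers stood at 68.4 to 2264 CPM against 259 to 763 CPM, with none called. The fit without sgEzh2 + sgLuc replicate 3, which called 7 Hoxa members, called 4.55% of all genes higher and 3.62% lower. There 1 of 12 stem and progenitor markers and 1 of 6 erythroid markers were called higher and 1 of 8 monocyte and macrophage markers lower. Their part in the Hoxa values was not tested. Of the 10 genes on either side of the cluster that were listed as its flank, 9 could be tested and 0 were called by edgeR, with a median log2 fold change of 0.08.

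Adding the Runx1 guide to the Bcor guide left most of these levels high. Hoxa7 stood at 24.1, 12.2 and 20.1 CPM in sgBcor + sgRunx1 replicates 1 to 3, against 3.09 to 5.37 CPM in sgLuc. It was called higher (log2 fold change 2.17, SE 0.638, edgeR FDR 0.0291). Hoxa5 stood at 5.57, 4.90 and 6.67 CPM in sgBcor + sgRunx1, against 0.389 to 1.96 CPM in sgLuc, and was called higher (log2 fold change 2.28, SE 0.680, edgeR FDR 0.0299). Hoxa9 stood at 22.2, 9.23 and 28.1 CPM, against 4.02 to 7.58 CPM in sgLuc, and did not pass (log2 fold change 1.59, SE 0.615, edgeR FDR 0.0913).

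Replicate 2 was the lowest of its group for 7 of the 8 tested members, all but Hoxa2, with 12.2 CPM of Hoxa7, 9.23 of Hoxa9, 0.679 of Hoxa3, 0.198 of Hoxa6 and 0.0849 of Hoxa10. For Hoxa3, Hoxa6 and Hoxa10 these values fell inside the range of sgLuc. Hoxa2 stood at 0.595, 0.623 and 0.389 CPM in sgBcor + sgRunx1, above all of sgLuc, and did not pass (log2 fold change 2.26, SE 0.905, edgeR FDR 0.103). Hoxa4 stood at 0.333, 0.283 and 1.11 CPM and overlapped sgLuc.

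Of the 9 members, 2 were called higher in sgBcor + sgRunx1 against sgLuc, where 4.73% of all genes were, and 4 lay above without overlap, where 7.6% did. Without sgEzh2 + sgLuc replicate 3, 5 were called (Hoxa3, Hoxa5, Hoxa6, Hoxa7 and Hoxa9, with edgeR FDR of 2.47e-05 to 0.0347), where 9.18% of all genes were called higher. No member was called without sgBcor + sgRunx1 replicate 1 or 3, or without sgLuc replicate 1 or 6, and 1 was called without sgLuc replicate 4. B cell markers summed to 20.2 to 47.7 CPM in this group, against 259 to 763 CPM in sgLuc, with 6 of 8 called lower, and 5 of 8 monocyte and macrophage markers were called lower. The 5 promyelocyte markers summed to 9935 to 16565 CPM in sgBcor + sgRunx1, against 3937 to 14049 CPM in sgLuc, and the 8 T cell markers to 1.31 to 14.0 CPM against 31.3 to 98.7 CPM, with 0 and 1 called. In the fit that left out sgEzh2 + sgLuc replicate 3, 9.18% of all genes were called higher and 13.6% lower. There 4 of 5 promyelocyte markers were called higher, and 6 of 8 T cell, 7 of 8 B cell, 6 of 8 monocyte and macrophage and 4 of 12 stem and progenitor markers lower. The part of these shifts in the Hoxa levels was not tested.

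The Bcor and Runx1 double was set against its own single-guide groups. Its levels overlapped those of the Bcor group for every tested member but Hoxa10. The SE of these log2 fold changes ran from 0.734 (Hoxa9) to 1.31 (Hoxa10), so differences of that size and well above it could be missed. In the same fit Hoxa9 did not pass in sgBcor + sgLuc against sgLuc at a log2 fold change of 1.99 (SE 0.613, edgeR FDR 0.0798). Hoxa9 in replicate 2 of the double, at 9.23 CPM, lay below the 24.1 to 28.7 CPM of sgBcor + sgLuc. Against sgBcor + sgLuc 0 members were called by edgeR, 0 had an unadjusted p under 0.05 and 0 were called by DESeq2, where 12.2% of all genes were called by edgeR. The exception in pattern was Hoxa10, at 1.33, 0.0849 and 1.33 CPM in sgBcor + sgRunx1, against 3.53, 3.87 and 3.13 CPM in sgBcor + sgLuc. It was below without overlap, as 17.6% of all genes were, with a log2 fold change of −1.93 (SE 1.31, edgeR FDR 0.368). Against sgRunx1 + sgLuc, which like the double carries the Runx1 guide, Hoxa3, Hoxa5, Hoxa7 and Hoxa9 lay above without overlap, where 10.3% of all genes did, with log2 fold changes of 1.81 to 2.52. edgeR called 0 members with all libraries, where 1.24% of all genes passed. At an unadjusted p under 0.05 there were 4, a count given without the share of all genes at that level. DESeq2 called 1, where it called 4.86% of all genes. Without sgEzh2 + sgLuc replicate 3, 3 were called higher, Hoxa7 (edgeR FDR 0.00311), Hoxa5 (0.00829) and Hoxa9 (0.0242), where 2.26% of all genes were.

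The single-guide groups gave comparisons in which neither Xist nor the Y-linked genes checked were called. Against sgRunx1 + sgLuc, sgBcor + sgLuc had 6 of 9 members above without overlap, where 17.7% of all genes were, and 0 called by edgeR (4.75% of all genes called). At an unadjusted p under 0.05 there were 6, a count given without the share of all genes at that level. DESeq2 called 4, where it called 8.6% of all genes. Hoxa9 stood at 25.9, 28.7 and 24.1 CPM in sgBcor + sgLuc, against 5.21, 5.80 and 5.92 CPM in sgRunx1 + sgLuc. Its log2 fold change there was 2.22 (SE 0.769, edgeR FDR 0.116). Without sgEzh2 + sgLuc replicate 3, 4 members passed, Hoxa7 (edgeR FDR 0.00125), Hoxa5 (0.00133), Hoxa9 (0.00338) and Hoxa3 (0.0146), where 6.37% of all genes were called higher. B cell markers summed to 68.4 to 2264 CPM in sgBcor + sgLuc, against 26.6 to 54.1 CPM in sgRunx1 + sgLuc, with 7 of 8 called higher, and T cell markers to 87.6 to 137 CPM against 2.51 to 20.2 CPM, with 1 of 8 called higher. These counts were 8 and 4 without sgEzh2 + sgLuc replicate 3, and the part of these shifts in the Hoxa values was not tested. Against sgEzh2 + sgLuc 7 of 9 members lay above without overlap, where 8.43% of all genes did, and edgeR called 0 (0.51% of all genes called), with 6 at an unadjusted p under 0.05 and 4 called by DESeq2 (3.4% of all genes). Without replicate 3 of sgEzh2 + sgLuc, 2 were called, Hoxa7 (log2 fold change 2.37, edgeR FDR 0.00442) and Hoxa9 (2.27, edgeR FDR 0.0406), where 0.116% of all genes were called higher. Without its replicate 1 there was 1.

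**Figure D3:**
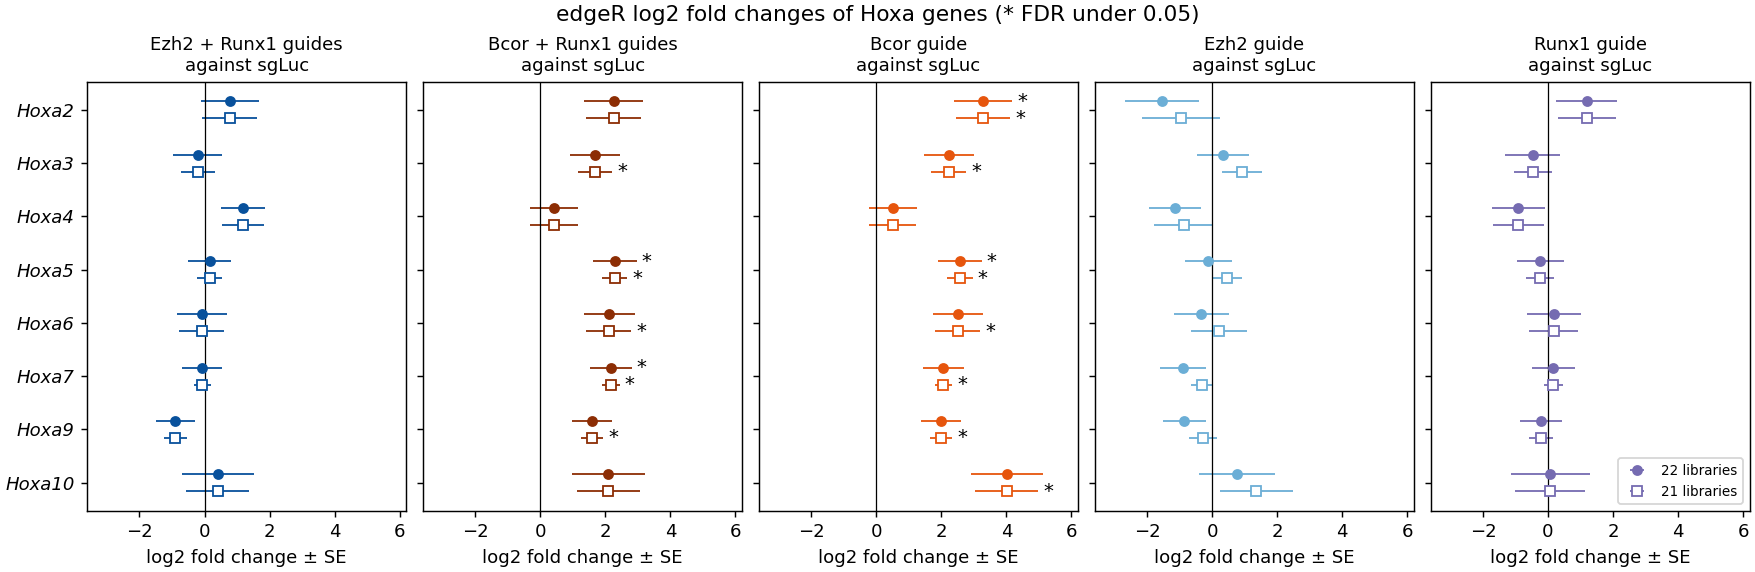
edgeR log2 fold changes against sgLuc (± SE) of the 8 tested Hoxa members in cluster order, for each group with a guide against a mouse gene. Circles are from all 22 libraries and squares from the 21 without sgEzh2 + sgLuc replicate 3; stars mark an FDR under 0.05, which occur in the 2 Bcor panels.

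The Runx1 guide alone and the Ezh2 guide alone gave no member past the threshold. Hoxa9 stood at 5.21, 5.80 and 5.92 CPM in sgRunx1 + sgLuc, against 4.02 to 7.58 CPM in sgLuc, and Hoxa7 at 4.70, 4.35 and 5.10 CPM, against 3.09 to 5.37 CPM in sgLuc. Against sgLuc the log2 fold changes of the 8 tested members lay between −0.91 (Hoxa4) and 1.20 (Hoxa2) in sgRunx1 + sgLuc. edgeR called 0, with 0 at an unadjusted p under 0.05 and 0 by DESeq2, where 8.12% of all genes were called. In sgEzh2 + sgLuc, Hoxa9 stood at 6.27, 4.61 and 0.0943 CPM and Hoxa7 at 3.12, 3.66 and 0 CPM, so that replicate 3 alone lay below sgLuc. edgeR called 0 members, with 0 at an unadjusted p under 0.05 and 0 by DESeq2, where 8.25% of all genes were called; without replicate 3, 0 members and 1.05% of all genes were called. In sgEzh2 + sgLuc against sgRunx1 + sgLuc edgeR and DESeq2 called 0 members, with 1 at an unadjusted p under 0.05, where 15.1% of all genes were called.

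Marrow with both the Ezh2 and Runx1 guides gave no member past the threshold against sgLuc. Hoxa9 stood at 5.34, 1.02, 4.86 and 2.96 CPM in sgEzh2 + sgRunx1 replicates 1 to 4, against 4.02 to 7.58 CPM in sgLuc, and Hoxa7 at 6.25, 2.06, 5.002 and 2.72 CPM, against 3.09 to 5.37 CPM in sgLuc. Both overlapped sgLuc. edgeR called 0 of 9 members against sgLuc, with 0 at an unadjusted p under 0.05 and 0 by DESeq2, where 10.1% of all genes were called.

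Hoxa4, a middle-cluster gene next to Hoxa5, had its highest group mean in this double. It stood at 1.07, 0.847, 0.947 and 1.06 CPM in sgEzh2 + sgRunx1 replicates 1 to 4, against 0.319, 0.147 and 0.113 CPM in sgEzh2 + sgLuc. It stood at 0.434, 0.0448 and 0.207 CPM in sgRunx1 + sgLuc and at 0 to 0.709 CPM in sgLuc. The 4 libraries lay above all of these, as did 10.8%, 12.2% and 7.58% of all genes in the same order of groups. The log2 fold change was 2.34 against sgEzh2 + sgLuc (SE 0.876, edgeR FDR 0.0863), 2.10 against sgRunx1 + sgLuc (SE 0.869, edgeR FDR 0.332) and 1.19 against sgLuc (SE 0.670, edgeR FDR 0.299), and none passed. These comparisons share libraries of the double and are not independent. The interaction, which asks whether the double differs from the sum of both single effects on the log2 scale, was 3.25 (SE 1.19, edgeR FDR 0.194). Of 8 B cell markers 7 were called lower in this double against sgLuc, summing to 27.8 to 52.4 CPM against 259 to 763 CPM, and 4 of 8 monocyte and macrophage and 2 of 8 T cell markers were called lower, with 0 of 12 stem and progenitor and 0 of 8 neutrophil markers called. With sgEzh2 + sgLuc replicate 3 left out, 7.64% of all genes were called higher and 9.76% lower. There 8 of 8 B cell, 7 of 8 T cell, 5 of 8 neutrophil and 4 of 8 monocyte and macrophage markers were called lower. Of the 12 stem and progenitor markers 3 were higher and 2 lower. The part of these shifts in the Hoxa4 level was not tested. Hoxa4 also shares some exon bases with Gm29430 on the opposite strand, and the part of such reads in its level was not tested.

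In sgEzh2 + sgRunx1 against sgEzh2 + sgLuc edgeR called 0 members, with 1 at an unadjusted p under 0.05 and 1 by DESeq2, where edgeR called 12.6% and DESeq2 16.6% of all genes. Besides Hoxa4, Hoxa2 lay above without overlap in this pair, at 0.303, 0.194, 0.170 and 0.105 CPM in sgEzh2 + sgRunx1, against 0.0912, 0.0210 and 0 CPM in sgEzh2 + sgLuc. These Hoxa2 values rest on 11, 8, 7 and 6 counts against 4, 1 and 0. The closest of them lie near the 0.0523 to 0.0972 CPM that a count of 0 allows. Against sgRunx1 + sgLuc edgeR and DESeq2 called 0, with 1 at an unadjusted p under 0.05, where edgeR called 0.187% of all genes. The interaction of Ezh2 and Runx1 guides had 0 members called by both tools and 1 at an unadjusted p under 0.05, where 0.527% of all genes passed. That of Bcor and Runx1 guides had 0 by either tool and 0 at an unadjusted p under 0.05, where 3.22% passed. Its widest value among the members was that of Hoxa2, −2.22 (SE 1.39, edgeR FDR 0.402).

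The doubles were also set against each other, a contrast in which neither Xist nor the Y-linked genes checked were called. These sex-linked genes summed to 444 to 699 CPM in sgEzh2 + sgRunx1 and to 296 to 476 CPM in sgBcor + sgRunx1. The lack of a call does not exclude a difference in sex-linked mRNA. Hoxa9 was called lower, at 5.34, 1.02, 4.86 and 2.96 CPM in sgEzh2 + sgRunx1, against 22.2, 9.23 and 28.1 CPM in sgBcor + sgRunx1 (log2 fold change −2.49, SE 0.703, edgeR FDR 0.0382). Hoxa7 stood at 6.25, 2.06, 5.002 and 2.72 CPM in sgEzh2 + sgRunx1, against 24.1, 12.2 and 20.1 CPM in sgBcor + sgRunx1 (log2 fold change −2.23, SE 0.724, edgeR FDR 0.0697). Hoxa5 stood at 2.09, 0.774, 1.29 and 1.08 CPM, against 5.57, 4.90 and 6.67 CPM (log2 fold change −2.13, SE 0.767, edgeR FDR 0.102). All 3 genes separated the groups completely.

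Of the 9 members 1 was called lower in that contrast, where 2.22% of all genes were, and 4 lay below without overlap, where 9.36% did. Without sgEzh2 + sgLuc replicate 3, 4 were called lower, Hoxa7 (edgeR FDR 0.000101), Hoxa9 (0.000486), Hoxa5 (0.00298) and Hoxa3 (0.0393), where 6.37% of all genes were. The 1 call ended without any 1 library of sgEzh2 + sgRunx1 and without sgBcor + sgRunx1 replicate 1 or 3. The 12 stem and progenitor markers summed to 295 to 452 CPM in sgEzh2 + sgRunx1 and to 219 to 289 CPM in sgBcor + sgRunx1, with 0 called. Neutrophil markers summed to 32409 to 42595 CPM in sgEzh2 + sgRunx1, against 58809 to 102510 CPM in sgBcor + sgRunx1, with 0 of 8 called. Monocyte and macrophage markers summed to 1159 to 1526 CPM in sgEzh2 + sgRunx1, against 441 to 763 CPM in sgBcor + sgRunx1, with 1 of 8 called higher. Neither sum overlapped between the groups. When sgEzh2 + sgLuc replicate 3 was left out, 8.63% of all genes were called higher and 6.37% lower. There 4 of 12 stem and progenitor and 5 of 8 monocyte and macrophage markers were called higher, and 7 of 8 neutrophil and 2 of 5 promyelocyte markers lower. The part of these shifts in the Hoxa values was not tested.

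The make-up of the Hoxa pool was compared through 2 ratios, both noticed in these values before they were tested. Neither passed, and with so few libraries neither could. The ratio of Hoxa7 to Hoxa9 counts, which does not depend on scaling, was 1.17, 2.02, 1.03 and 0.918 in sgEzh2 + sgRunx1, against 0.498 and 0.795 in sgEzh2 + sgLuc replicates 1 and 2. It was 1.09, 1.32 and 0.717 in sgBcor + sgRunx1, against 0.642, 0.762 and 0.587 in sgBcor + sgLuc. In sgRunx1 + sgLuc it was 0.902, 0.749 and 0.860, against 0.510 to 0.960 in sgLuc with a median of 0.600. The mean was higher with the Runx1 guide in all 3 pairs, but the values overlapped in the Bcor and sgLuc pairs.

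The ratio of Hoxa10 to Hoxa9 counts was 0.0600, 0.00920 and 0.0475 in sgBcor + sgRunx1, against 0.136, 0.135 and 0.130 in sgBcor + sgLuc. The 3 values of sgBcor + sgLuc had an SD of 0.0032 and lay above every library of sgBcor + sgRunx1. Two-sided exact permutation tests of both ratios in the 3 pairs gave p = 0.1333, 0.2 and 0.1429 for Hoxa7 in the Ezh2, Bcor and sgLuc pairs, and p = 0.6667, 0.1 and 0.5 for Hoxa10. The mean Hoxa10 ratio was 0.0625 in sgEzh2 + sgRunx1 and 0.0900 in sgEzh2 + sgLuc, and 0.0391 in sgRunx1 + sgLuc and 0.0283 in sgLuc, so the direction was not shared by the 3 pairs. With 6 tests the Benjamini-Hochberg adjusted values were 0.286 or more. The smallest p that 3 against 3 allows is 0.1, and that of 4 against 2 is 0.1333, so these 2 designs could not pass. For 3 against 6 it is 0.0238. Even if both ratios reached that value, they would stay above 0.05 after adjustment over the 6 tests. None of the 6 tests could therefore pass, and their outcome says nothing for or against a difference. Hoxa7 shares 20.4% of its exon bases with Hoxaas3 on the opposite strand. The limit is not confined to Hoxa7. Hoxa3 shares 25.4% with opposite-strand genes, Hoxaas2 and Hoxaas3 among them. Hoxa4 shares a smaller part than Hoxa7, with Gm29430, and the untested Hoxa11 overlaps Hoxa11os. The library protocol in the labels describes no step that marks strand, so reads in these shared bases cannot be told apart. Hoxa2 and Hoxa3 also share exon bases with Gm28308 on their own strand.

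**Figure D4:**
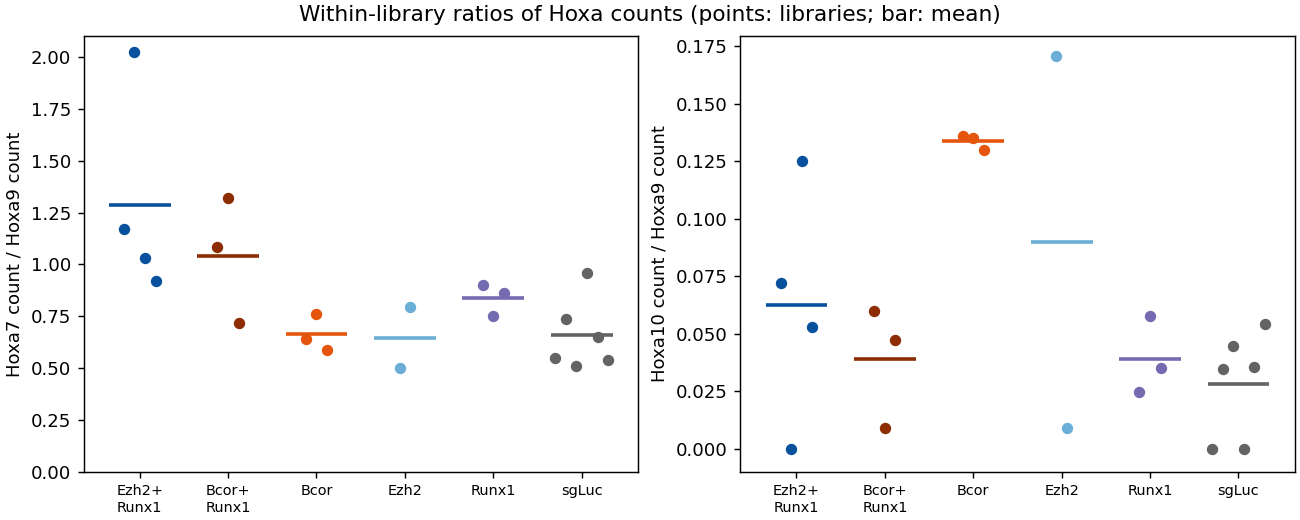
Ratio of Hoxa7 to Hoxa9 counts (left) and of Hoxa10 to Hoxa9 counts (right) in each library (points) with the mean of each guide group (bar); sgEzh2 + sgLuc replicate 3, with 5 Hoxa9 counts, is left out. The 3 libraries of sgBcor + sgLuc sit at 0.130 to 0.136 in the right panel, against 0.00920 to 0.0600 in sgBcor + sgRunx1.

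Most members varied together across libraries. Over the 21 libraries without sgEzh2 + sgLuc replicate 3, log2 CPM of Hoxa7 and Hoxa9 had Pearson r = 0.909, Hoxa5 and Hoxa7 0.897, and Hoxa6 and Hoxa9 0.833. After the group means were taken away these were 0.809, 0.613 and 0.729. Hoxa4 had r = 0.0968 with Hoxa9, 0.145 with Hoxa7 and 0.361 with Hoxa5. After the group means were removed these were 0.423, 0.209 and 0.636, while Hoxa2 and Hoxa3 had 0.0110 and 0.147 with Hoxa9. These are descriptions over libraries that share groups and depth.

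Outside the cluster, the 6 genes most like Hoxa9 over those 21 libraries by Pearson r were Top3b (0.899), St14 (0.893), Synj2 (0.860), Pigo (0.859), Riok1 (0.843) and Eme2 (0.825). Their Spearman rho ran from 0.723 to 0.881 and their r after group means were removed from 0.539 to 0.645. With all 22 libraries the first was Ccdc57 (r = 0.909) and Top3b was the fifth (0.896). Top3b encodes a topoisomerase and St14 a membrane protease.

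Among homeobox genes of the other Hox clusters 10 of 28 could be tested. In sgBcor + sgLuc against sgLuc 3 were called higher (Hoxb9, Hoxb7 and Hoxb8) and 0 lower, with a median log2 fold change of 3.09, and in sgBcor + sgRunx1 against sgLuc 3 were called higher (Hoxb5, Hoxb7 and Hoxb2). These counts were 7 and 4 without sgEzh2 + sgLuc replicate 3, where 4.55% and 9.18% of all genes were called higher. Hoxb7 stood at 0.900, 0.156 and 0.329 CPM in sgBcor + sgLuc and at 0.381, 0.170 and 0.362 CPM in sgBcor + sgRunx1, against 0 to 0.0616 CPM in sgLuc. In sgRunx1 + sgLuc against sgLuc 1 was called higher, and 3 were without sgEzh2 + sgLuc replicate 3, where 5.72% of all genes were. The 1 called with all libraries was Hoxb5, at 3.06, 3.58 and 2.17 CPM against 0 to 0.616 CPM (log2 fold change 4.36, edgeR FDR 0.0109). Hoxa5, of the same paralog group, was at 1.02, 0.694 and 1.27 CPM against 0.389 to 1.96 CPM (log2 fold change −0.24, edgeR FDR 0.899).

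Of 10 listed genes for partner proteins of Hox factors 9 were tested, and 0 were called by edgeR in sgBcor + sgLuc against sgLuc, with 1 lower without sgEzh2 + sgLuc replicate 3. Meis1 stood at 7.39, 12.2 and 7.89 CPM in sgBcor + sgLuc, against 3.37 to 9.89 CPM in sgLuc. In sgEzh2 + sgRunx1 against sgLuc Pbx3, a partner of Hoxa9 in leukaemia, was called higher, at 20.7, 20.9, 26.2 and 21.05 CPM against 5.32 to 8.97 CPM (log2 fold change 1.77, edgeR FDR 0.00271), and it was lower in sgBcor + sgRunx1, at 1.57, 5.29 and 1.22 CPM (log2 fold change −1.28, edgeR FDR 0.0459). Among 24 listed activators of the cluster, 21 of them tested, 1 was called in sgBcor + sgLuc against sgLuc, the X-linked demethylase gene Kdm6a (log2 fold change 0.96, edgeR FDR 0.0039). Without sgEzh2 + sgLuc replicate 3, 3 activators were called higher, where 4.55% of all genes were. Kdm6a was called higher in each of the 5 groups against sgLuc, beside Xist, and in 0 of the comparisons among those groups. Of 20 listed genes linked to Hoxa9 and Meis1, 19 were tested; 2 were higher in sgBcor + sgLuc than in sgLuc, Eya1 (log2 fold change 1.87, edgeR FDR 0.00535) and Igf1 (4.14, edgeR FDR 0.0296), and 0 lower, with 3 higher without sgEzh2 + sgLuc replicate 3. Eya1 stood at 9.02, 4.51 and 6.2012 CPM in sgBcor + sgLuc, against 1.26 to 2.13 CPM in sgLuc. Igf1 stood at 2.07, 0.400 and 63.2 CPM, against 0.536 to 3.02 CPM, so that 1 library carried its difference.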

How the data were processed

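Read counts and FPKM per Ensembl gene, deposited by the authors, were used for 22 mRNA libraries in 6 groups read from the sample titles. Reads had been handled with fastp, HISAT2 and HTSeq on build mm9, per the submitters' processing notes, with versions, options, annotation release and strand use not given in the sources used here. As deposited, the counts are raw. The FPKM deposited by the authors scale each member's count by library and by 1 length per gene, as tested on the members. Replicate numbers are those of the titles; for 4 libraries the column name used to find the data carries another number. The labels do not tie replicates to litters or transplant days, so p-values measure the spread between these samples.

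The genes, lists, ratios and tests were chosen with earlier results of these data known. edgeR 4.0.16 (R 4.3.3) filtered genes by group (minimum count 10), scaled by TMM and fitted 1 quasi-likelihood model with 6 group means to all libraries (16 residual degrees of freedom); 15 comparisons, 2 of them interactions, were tested with Benjamini-Hochberg adjustment over all genes and called at FDR under 0.05. Member counts at an unadjusted p under 0.05 are given without the share of all genes at that level and are not calls. The SE is the log2 fold change over the root of F. CPM are TMM-scaled. Alternatives were DESeq2 1.42.0, other size factors, no filter, the compared groups only, a replicate block and omission of each library; the omission of sgEzh2 + sgLuc replicate 3 from the correlations and of each library from the ratios was added after seeing the data. All 9 members are described; list members past the threshold were named in order of p, up to 4. A gene is like a member by Pearson r of log2 CPM (prior count 2) among genes with a mean of 1 CPM or more. The fit was tested on simulated data, with changes placed only in genes with a mean above 1 CPM. Low members such as Hoxa2 and Hoxa4 lie outside that setting. Positions are from GENCODE M21 and promoters from RefSeq, both GRCm38, and none was converted. One neighbouring result is not reported here.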

Additional observations from a re-analysis of the deposited data

Results flagged for a closer look

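Among 21 sets of values of 4 or 6 libraries, 1 held a library far from the rest of its group: Hoxa11 in sgLuc, where replicate 2 stood at 0.126 CPM, from 4 counts, against 0 to 0.0308 CPM in the other 5 libraries. The cut-offs mark about 1 in 20 sets of normally spread values, a rate that need not hold for low counts with ties at 0. The 4 counts are close to the 3 that a count of 0 allows.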

How the results depend on the processing

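Calls of single members were fragile, while the direction of the called members was kept. Direction was followed over the alternatives only for the 5 member calls, so it says nothing of uncalled members. Some of those changed sign without sgEzh2 + sgLuc replicate 3. In sgEzh2 + sgLuc against sgLuc, the log2 fold change of Hoxa5 went from −0.11 to 0.47 and that of Hoxa6 from −0.33 to 0.21. The 5 member calls kept their direction in all of their alternatives; all 5 passed with DESeq2 size factors, with the DESeq2 Wald test and with the compared groups only, while 1 of 5 passed without the filter, and calls were kept in 14 of 48 omissions of a library. Counts of members called moved as follows. With the DESeq2 Wald test there were 7 in sgBcor + sgLuc against sgLuc, 4 against sgRunx1 + sgLuc and 4 against sgEzh2 + sgLuc, 1 in sgBcor + sgRunx1 against sgRunx1 + sgLuc, 3 in sgEzh2 + sgRunx1 against sgBcor + sgRunx1 and 1 in it against sgEzh2 + sgLuc. With the compared groups only, the counts for sgBcor + sgLuc were 7 against sgLuc and 6 against sgRunx1 + sgLuc, and those for sgEzh2 + sgRunx1 were 3 against sgBcor + sgRunx1 and 1 against sgEzh2 + sgLuc. Without the filter they were 0 in sgBcor + sgLuc and 1 in sgBcor + sgRunx1 against sgLuc, and 0 between the doubles. Over the omissions the range was 0 to 7 in sgBcor + sgLuc against sgLuc, 0 to 4 against sgRunx1 + sgLuc and 0 to 2 against sgEzh2 + sgLuc; 0 to 5 in sgBcor + sgRunx1 against sgLuc and 0 to 3 against sgRunx1 + sgLuc; and 0 to 4 between the doubles, with every upper end reached without sgEzh2 + sgLuc replicate 3. In the other 9 comparisons no omission gave a call. Over all genes, calls in sgBcor + sgLuc against sgLuc numbered 558, against 1277 with the DESeq2 Wald test, 1155 with the compared groups only, 1484 without sgEzh2 + sgLuc replicate 3 and 148 with the replicate block. For the other comparisons with the compared groups only, the share of all genes called is not given here. The same holds for the counts without the filter and for the DESeq2 count between the doubles. These member counts therefore cannot be set against a general rise or fall in calls. Why the omissions and the filter move the counts was not tested.

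The replicate block called 0 members in sgBcor + sgLuc against sgLuc, 0 in sgBcor + sgRunx1 against sgLuc and 0 between the doubles. Deviations from the group means had r −0.135 to 0.0965 over the 46 pairs of libraries with the same number (median 0.0144). Over the 152 pairs with different numbers they had r −0.184 to 0.182 (median −0.0106). Such values over all genes cannot tell whether some libraries with the same number share a litter or day. The difference in the Hoxa10 to Hoxa9 ratio between sgEzh2 + sgRunx1 and sgEzh2 + sgLuc, −0.0275, ranged from −0.1084 to 0.0534 when each library was left out in turn, with 1 change of sign. Hoxa2, Hoxa4, Hoxa6 and Hoxa10 had fewer than 20 counts in most libraries outside the Bcor groups, which limits their precision.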
